A study of Mus musculus with 6 samples.

Results

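Antisense transcripts are RNAs read from the strand opposite a gene. The consensus peaks of open chromatin that lay at their annotated starts were examined in organoids from aged and young mice. A peak was counted as an antisense promoter where the deposited annotation gave its nearest gene the type antisense and placed the peak within 1000 bp of that gene's transcription start site (TSS). This held for 894 of 156733 peaks, which belonged to 803 antisense transcripts. Of these transcripts, 715 had 1 such peak, 85 had 2 and 3 had 3. The same distance rule gave 12285 peaks at protein-coding genes and 938 at long intergenic non-coding RNA (lincRNA) genes, which served for comparison. Just inside the limit lay a peak of Hnf4aos at 1000 bp downstream (11.4 ± 0.251 CPM, counts per 10⁶, in aged and 12 ± 1.65 CPM in young libraries) and one of Gm15735 at 1000 bp upstream (0.587 ± 0.0414 CPM in aged and 0.631 ± 0.209 CPM in young; SD, n = 3 each). Just outside lay a peak of Gm15978 (0.828 ± 0.281 CPM in aged and 1.11 ± 0.340 CPM in young libraries) and one of Gm16144 (2.72 ± 0.341 CPM in aged and 2.57 ± 0.0571 CPM in young), each 1001 bp away.

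The study measured chromatin accessibility by ATAC-seq, in which the transposase Tn5 cuts open chromatin and leaves sequencing adapters there. The samples were organoids, cultures that form crypt-like epithelium in a gel, grown from small-intestinal epithelium of C57BL/6JRj mice. The aged group held 3 libraries from mice of 20 to 22 months and the young group 3 libraries from mice of 2 to 3 months. No transgene, deletion or drug treatment is named for either group. All cultures were kept for 3 to 5 weeks, and replicates 1, 2 and 3 were harvested at passages 4, 3 and 2, with 1 aged and 1 young library at each. Separate animals are not named as the source of the 3 libraries of either age, and a p-value here reflects spread among these libraries, which may be technical.

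Natural antisense transcripts can start head to head with a coding gene from a shared open region, or inside the gene and run against it. Some act in cis: Airn and Kcnq1ot1 are long RNAs made from the paternal chromosome that silence neighbouring imprinted genes, and Nespas runs antisense to the imprinted Gnas locus. Many others are known only from annotation, and their RNAs are often short-lived because the nuclear RNA exosome degrades them. Accessibility reports how open the DNA is, not how much RNA is made from it. At a region shared by both strands it cannot say which strand is used.

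Printed here are promoter windows of RefSeq starts (GRCm38.p6), each 250 bases before to 50 after the start, that overlap a peak on which the results turn. The first 3 overlap peaks that were lower in aged organoids, and the last 3 belong to antisense transcripts of imprinted or intestinal genes that passed no test. Capitals mark matches, on either strand, to the motifs searched, which were the TATA box TATAAA, the NF-Y box CCAAT, the GC box GGGCGG, the E-box CACGTG, the AP-1 element TGANTCA, the ETS element CCGGAA and the GATA element AGATAA, and no matches overlapped in the windows printed. The Rbm46 window, which overlaps the Rbm46os peak by 275 bp, is chr3:82876434-82876733 on the minus strand. The Wt1os window is chr2:105126461-105126760 (minus). The window of Gm32995, a long non-coding RNA whose start lies at the edge of the RP23-480P21.2 peak, just outside it, overlaps that peak by 247 bp and is chr5:96739158-96739457 (minus). Kcnq1ot1 is chr7:143296498-143296797 (minus), Airn is chr17:12741061-12741360 (plus) and Hnf4aos is chr2:163541672-163541971 (minus).
Rbm46: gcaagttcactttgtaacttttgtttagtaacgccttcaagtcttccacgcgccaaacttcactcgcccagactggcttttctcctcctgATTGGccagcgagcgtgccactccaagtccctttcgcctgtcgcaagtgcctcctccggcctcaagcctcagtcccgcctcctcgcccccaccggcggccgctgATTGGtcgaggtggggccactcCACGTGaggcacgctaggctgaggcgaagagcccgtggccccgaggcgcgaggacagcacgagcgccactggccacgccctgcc
Wt1os: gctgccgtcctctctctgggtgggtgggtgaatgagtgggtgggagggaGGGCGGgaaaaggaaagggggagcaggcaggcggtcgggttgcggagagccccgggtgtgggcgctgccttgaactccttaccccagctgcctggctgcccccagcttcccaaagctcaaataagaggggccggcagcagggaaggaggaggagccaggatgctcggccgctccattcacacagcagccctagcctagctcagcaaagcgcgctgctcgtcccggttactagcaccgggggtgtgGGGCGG
Gm32995: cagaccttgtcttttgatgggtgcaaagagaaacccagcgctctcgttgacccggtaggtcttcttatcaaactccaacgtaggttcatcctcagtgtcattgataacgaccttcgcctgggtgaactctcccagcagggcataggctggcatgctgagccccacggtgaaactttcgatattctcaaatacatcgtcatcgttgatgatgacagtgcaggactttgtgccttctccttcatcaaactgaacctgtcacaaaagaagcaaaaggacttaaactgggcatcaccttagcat
Kcnq1ot1: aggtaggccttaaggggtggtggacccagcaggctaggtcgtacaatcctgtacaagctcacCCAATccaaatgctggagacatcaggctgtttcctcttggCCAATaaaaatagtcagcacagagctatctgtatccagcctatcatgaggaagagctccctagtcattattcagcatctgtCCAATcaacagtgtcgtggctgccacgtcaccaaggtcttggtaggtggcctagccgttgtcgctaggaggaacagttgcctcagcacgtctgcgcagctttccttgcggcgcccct
Airn: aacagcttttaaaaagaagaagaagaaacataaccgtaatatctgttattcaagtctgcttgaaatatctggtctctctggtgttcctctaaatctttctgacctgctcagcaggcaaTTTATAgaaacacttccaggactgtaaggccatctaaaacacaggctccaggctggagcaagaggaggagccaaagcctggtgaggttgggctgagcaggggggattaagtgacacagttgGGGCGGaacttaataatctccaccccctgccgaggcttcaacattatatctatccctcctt
Hnf4aos: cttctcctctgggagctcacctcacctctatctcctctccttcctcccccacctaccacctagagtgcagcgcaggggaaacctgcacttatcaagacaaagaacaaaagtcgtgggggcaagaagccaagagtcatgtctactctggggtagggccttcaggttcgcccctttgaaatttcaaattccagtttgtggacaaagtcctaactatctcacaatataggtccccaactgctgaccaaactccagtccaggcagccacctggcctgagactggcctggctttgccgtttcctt

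These windows differed in base composition. The Rbm46 and Wt1os windows were 64.0% and 66.7% G or C and held 25 and 16 CG pairs, against a median of 52.7% and 7 pairs over all 32851 RefSeq windows of the same length. Kcnq1ot1 (53.3%, 9 pairs), Hnf4aos (52.7%, 4 pairs), Gm32995 (48.0%, 10 pairs) and Airn (45.7%, 3 pairs) were nearer to or below that median. CCAAT stood 3 times in the Kcnq1ot1 window and 2 times in the Rbm46 window, and 37.4% of all windows held it. GGGCGG stood 2 times in the Wt1os window and 1 time in the Airn window, and 35.7% of all windows held it. CACGTG was found in the Rbm46 window (7.15% of all windows) and TATAAA in the Airn window (13.6% of all windows). The letters of the other motifs were in none of these 6 windows, while TGANTCA was in 7.81%, CCGGAA in 14.9% and AGATAA in 11.2% of all windows.

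The libraries held 22363682, 21687816 and 26093521 counts in peaks for aged replicates 1 to 3, and 7278161, 25901670 and 19208483 for young replicates 1 to 3. Young replicate 1 was the shallowest and stood apart on the first principal component of all tested peaks (34.8% of the variance), and young replicate 3 stood apart on the second (23.4%). At antisense promoters the median count was 83, 85 and 103 in the aged libraries and 26, 103 and 70 in the young ones, and 15 of the 894 peaks had no count in young replicate 1 against 0 to 2 in the other 5 libraries. Epithelial identity was checked at 16 marker genes, of which 13 had a promoter peak. The summed level of these 13 was 412 to 427 CPM in aged and 385 to 431 CPM in young libraries. Vil1, Krt19 and Muc2 had no such peak, so a missing peak under this annotation does not show that a cell type is absent. Immune markers had a peak for 3 of 8 genes (Ptprc, Cd3e, Itgam and Csf1r were among those with none), summing to 9.52 to 10.7 CPM in aged and 10.2 to 11.4 CPM in young libraries. Most of that sum was the peak of Cd68 (9.46 ± 0.421 CPM in aged and 9.59 ± 0.739 CPM in young). Stromal, endothelial and neural markers had a peak for 5 of 10 genes (Col1a2, Pecam1, Cdh5 and Elavl4 were among those with none), summing to 30.0 to 35.1 CPM in aged and 27.6 to 34.8 CPM in young. No marker peak was called in edgeR's quasi-likelihood test, with or without the replicate block, or in DESeq2. At an unadjusted p under 0.05 there were 2 of 13 tested epithelial, 0 of 2 immune and 1 of 4 stromal, endothelial and neural peaks. Over all tested peaks the shares were 1.13% called in edgeR without the block and 9.71% at an unadjusted p under 0.05. In bulk organoids, fewer cells of a type and less open chromatin per cell cannot be told apart.

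Antisense promoters were less open and narrower than coding ones. Their median level over the 6 libraries was 3.68 CPM (quartiles 1.04 and 17, highest 174 CPM), with a median width of 427 bp. Per kilobase of peak, the median level was 9.37 CPM at antisense promoters, 9.68 CPM at lincRNA promoters and 19.5 CPM at protein-coding promoters, against 6.03 CPM over all peaks. By the deposited class, 642 antisense peaks (71.8%) lay in a promoter, 110 in an intron, 98 in an exon and 44 at a transcription termination site, where the class may refer to another gene than the antisense one. The level was highest nearest the TSS, with a median of 6.65 CPM for the 189 peaks within 100 bp. It was 5.02 CPM for the 211 peaks between 100 and 500 bp upstream and 4.57 CPM for the 201 at that distance downstream. It was 2.42 CPM for the 132 peaks between 500 and 1000 bp upstream and 1.88 CPM for the 161 downstream.

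Levels differed with whether a coding gene started in the same place. A protein-coding start lay within 1000 bp of 334 antisense peaks, by the RefSeq windows or the deposited class, and those peaks had a median width of 804 bp and a median level of 17.5 CPM per kilobase, near that of coding promoters. At 550 peaks no coding start was found, the median width was 307 bp and the median level was 6.63 CPM per kilobase, and 10 peaks were not classified. Most antisense promoters, 670 (74.9%), lay inside the span of a coding gene. The 5 peaks with the highest CPM, a rank that does not allow for peak width, were all at a coding promoter by the deposited class. Gm11399, inside the centrin-binding gene Sfi1, had 177, 204 and 178 CPM in aged libraries and 166, 158 and 162 CPM in young libraries. The aged libraries lay above the young ones there, but the log2 fold change of 0.20 did not pass the test (edgeR adjusted p = 0.221). Gm20512, at the start of Tomm40, the channel of the mitochondrial import complex, averaged 171 ± 10.1 CPM in aged and 174 ± 20.7 CPM in young libraries. Gm14966, at the splicing factor gene Sf1, averaged 120 ± 2.91 CPM in aged and 119 ± 13.3 CPM in young. Gt(ROSA)26Sor, the Rosa26 transcript whose locus is widely used for transgenes, averaged 118 ± 3.67 CPM in aged and 110 ± 3.79 CPM in young, and Gm26787, at the oligosaccharyltransferase gene Stt3a, 113 ± 3.40 CPM in aged and 112 ± 14.6 CPM in young (SD, n = 3 each).

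**Figure D1:**
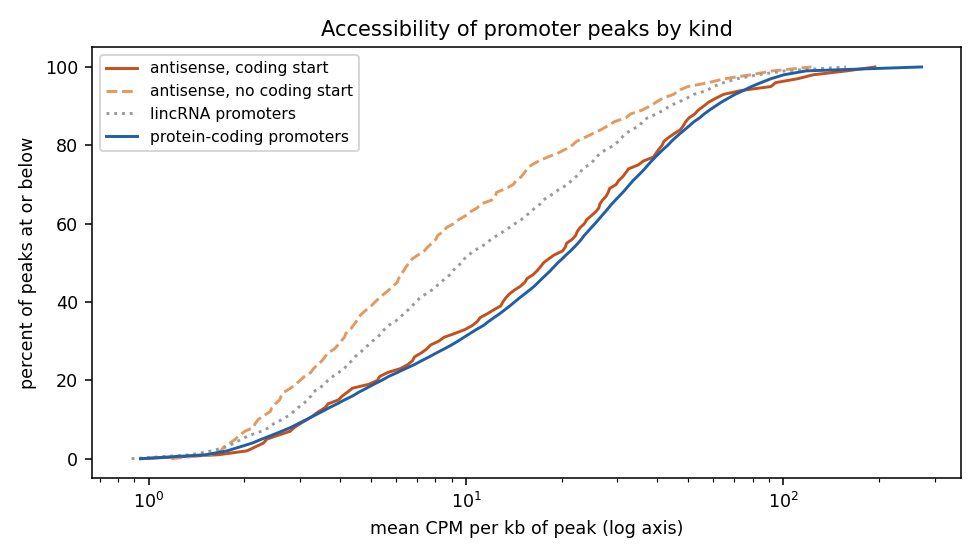
Cumulative share of promoter peaks (y axis, percent of peaks at or below) against mean accessibility per kilobase of peak (x axis, CPM per kb, log axis), for antisense peaks with and without a coding start within 1000 bp and for protein-coding and lincRNA promoters. Antisense peaks with a coding start (median 17.5 CPM per kb) run close to protein-coding promoters (19.5), and those without one (6.63) run to the left of lincRNA promoters (9.68).

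As a group, antisense promoters held a slightly larger share of all counts in aged organoids. The share was 1.191%, 1.205% and 1.198% in aged replicates 1 to 3 and 1.176%, 1.188% and 1.147% in young replicates 1 to 3. Every aged library lay above every young one, by a mean difference of 0.0281 percentage points (0.0164 without young replicate 3), and the exact permutation test (two-sided) gave p = 0.1, the smallest that 3 against 3 allows. Protein-coding promoters took 26.7% ± 0.193 of counts in aged and 26.1% ± 0.641 in young libraries (SD, n = 3 each; exact permutation p = 0.3), and were higher in the aged library of 3 of 3 same-numbered pairs, as antisense promoters were. The share in lincRNA promoters was 1.18% ± 0.00696 in aged and 1.17% ± 0.0159 in young libraries (exact permutation p = 0.3). Because a share is relative to all peaks, it does not show an absolute gain in openness.

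Peak by peak, few antisense promoters differed between the ages. Of the 894 peaks, 805 passed the filter on low counts and were tested, and the other 89 had at most 26 counts in any library. In edgeR's quasi-likelihood test, 7 of 805 peaks (0.870%) passed an adjusted p under 0.05, 3 higher and 4 lower in aged organoids, while 1.13% of all 132055 tested peaks passed (0.619% higher and 0.51% lower). This share was near the background and is not a result about antisense promoters as a class. At an unadjusted p under 0.05 there were 52 higher and 35 lower antisense peaks, 10.8% in all against a background of 9.71% (4.9% higher and 4.81% lower). Every aged library lay above every young one at 69 tested peaks (8.57%, background 7.66%) and below at 39 (4.84%, background 7.08%). The median log2 fold change, aged over young, was 0.04 (quartiles -0.09 and 0.15), with 464 positive and 341 negative values, and it was 0.03 at protein-coding promoters, 0.00 at lincRNA promoters and -0.01 over all tested peaks. By comparison, 147 of 11652 tested protein-coding promoter peaks passed (42 higher and 105 lower), and 21 of 850 lincRNA promoter peaks (13 higher and 8 lower). DESeq2, which gave no adjusted p for 39 antisense peaks, called 4 of the 7 and no other, 1 higher and 3 lower, against 0.682% of all peaks (0.38% higher and 0.302% lower). With no filter on low counts, 10 of 894 were called (background 1.14%, 0.611% higher and 0.524% lower), and with libraries thinned to the shallowest 4 of 629 (background 0.814%, 0.473% higher and 0.341% lower). Without aged replicate 1, 2 or 3 there were 7, 5 and 4 calls, against 0.784%, 0.908% and 0.607% of all peaks. Without young replicate 1, 2 or 3 there were 7, 14 and 7 calls, against 0.82%, 1.4% and 0.837% of all peaks. A fold change of at least 2 in either direction was fitted for 11 antisense peaks (1.37%), against 1.62% of all tested peaks.

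**Figure D2:**
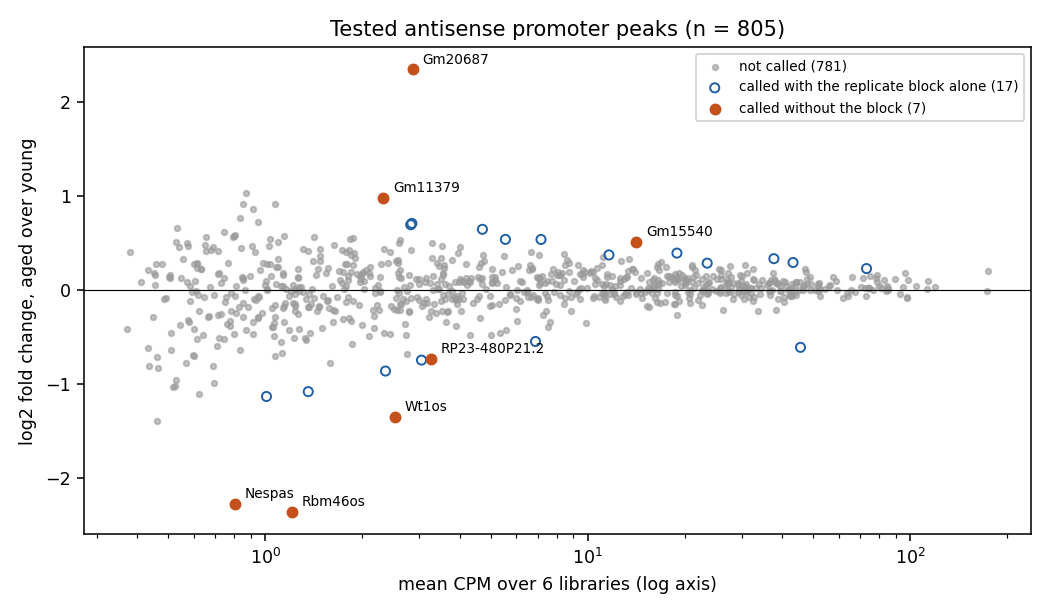
Log2 fold change, aged over young (y axis), against mean CPM over the 6 libraries (x axis, log axis) for the 805 tested antisense promoter peaks, with the 7 called peaks named. Fold changes spread out towards low CPM, and none of the called peaks is among the most open ones: their mean levels run between 0.803 and 14.1 CPM.

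The peak with the smallest p belonged to Gm20687, an antisense transcript known only from annotation (peak at chr14:55053689-55053953, 48 bp upstream of its TSS and outside coding genes). It had 5.10, 3.90 and 5.36 CPM in aged replicates 1 to 3 and 1.11, 1.16 and 0.576 CPM in young replicates 1 to 3. Every aged library was more than 3 times as high as any young one. The log2 fold change was 2.34 ± 0.25 (SE; edgeR adjusted p = 1.38e-07), a 5.08-fold higher level in aged organoids. The change was not limited to this peak, since a small peak 834 bp away rose by 1.64 on the log2 scale (edgeR adjusted p = 7.7e-04). The promoter of Thtpa, which makes the thiamine triphosphatase and lies next to them, had a log2 fold change of 0.31 (edgeR adjusted p = 0.278) and did not pass.

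The other peaks that rose were smaller in effect and less stable. Gm11379 (chr13:31797679-31798389, in its own intron, 324 bp downstream of the TSS) had 2.84, 3.39 and 2.77 CPM in aged and 2.09, 1.39 and 1.41 CPM in young libraries, which did not overlap. Its log2 fold change was 0.98 ± 0.23 (edgeR adjusted p = 0.0219). The Foxc1 peak 7.8 kb away, at a forkhead factor gene of mesenchyme and eye development, had a log2 fold change of -0.09 and did not pass. Gm15540 (chr3:142744119-142745456, 106 bp upstream, over the end of the kynurenine aminotransferase gene Kyat3) had 19.5, 15.3 and 14.9 CPM in aged and 11.7, 10.1 and 13.2 CPM in young libraries. All 3 aged libraries were above the young ones, and the log2 fold change was 0.51 ± 0.13 (edgeR adjusted p = 0.0417). The 5 other tested peaks within 25 kb of it had log2 fold changes between 0.00 and 0.75, and none passed. The highest was at a peak 4.6 kb away (edgeR adjusted p = 0.103, and 0.0163 with the replicate block). Both calls were lost in DESeq2 (adjusted p = 0.113 for Gm11379 and 0.105 for Gm15540) and with all libraries thinned to the shallowest (0.565 and 0.101). Gm11379 was also lost without aged replicate 2 (edgeR adjusted p = 0.109) or 3 (0.0569) or young replicate 2 (0.110) or 3 (0.0917). Gm15540 was lost without aged replicate 1 (edgeR adjusted p = 0.410) or 3 (0.0683) or young replicate 1 (0.101) or 2 (0.171).

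Of the peaks that fell, Rbm46os and Wt1os lie where a coding gene starts. The Rbm46os peak (chr3:82876404-82876708, 190 bp upstream of its TSS) holds the start of Rbm46, an RNA-binding protein gene of the germ line, whose CG-rich promoter is the first window printed. It had 0.541, 0.321 and 0.347 CPM in aged libraries and 1.81, 2.55 and 1.68 CPM in young libraries. The aged values, from 7 to 12 counts per library, all lay well below the young ones, from 13 to 68 counts. The log2 fold change was -2.36 ± 0.32 (edgeR adjusted p = 1.56e-05). The other peak of Rbm46os, 436 bp away, had a log2 fold change of 0.01 and did not pass, and the change was thus seen in 1 of its 2 peaks.

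Wt1os runs against Wt1, a zinc-finger transcription factor gene of kidney, gonad and mesothelium. Its peak (chr2:105126471-105127408, 536 bp upstream of the annotated Wt1os TSS) is classed as the Wt1 promoter in the deposited annotation and overlaps the printed Wt1os window by 290 bp. It had 1.58, 1.70 and 1.0 CPM in aged libraries and 3.90, 4.17 and 2.77 CPM in young libraries, with no overlap. The log2 fold change was -1.35 ± 0.24 (edgeR adjusted p = 7.63e-04). Of the other tested peaks within 25 kb, both nearest to Wt1os and within or at the end of Wt1, neither passed (log2 fold changes of -0.26 and -0.38). The marker sums of stromal, endothelial and neural cells overlapped between the ages, as given above, and rested mostly on Pdgfra and S100b. Of their 4 tested peaks, that of Kdr, the VEGF receptor gene of endothelium, had 1.85, 2.2 and 1.93 CPM in aged and 2.79, 3.68 and 2.67 CPM in young libraries. Every aged library lay below every young one there, as at 7.08% of all tested peaks. The log2 fold change of -0.65 did not pass (edgeR adjusted p = 0.187, and 0.0875 with the replicate block). The other tested peaks of this list did not go 1 way, with log2 fold changes of 0.12 at Pdgfra, 0.02 at S100b and -0.18 at Col1a1. Pdgfrb, which was not tested, averaged 0.531 ± 0.309 CPM in aged and 0.236 ± 0.153 CPM in young libraries. The part of other cell types in the Wt1os difference was not tested.

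Of the imprinted antisense transcripts named here, Nespas had a peak that changed (chr2:174295373-174295740, 120 bp upstream of its TSS, inside the span of Gnas, which encodes the stimulatory G protein alpha subunit). It had 0.316, 0.183 and 0.308 CPM in aged libraries and 1.11, 0.751 and 2.15 CPM in young libraries. All aged libraries were below all young ones, on 4 to 8 counts per aged library and 8 to 41 per young library, with young replicate 3 the highest. The log2 fold change was -2.27 ± 0.43 (edgeR adjusted p = 0.00219). Without young replicate 3 it was -1.64 and no longer passed (edgeR adjusted p = 0.205). The Nespas peak was also not called with all libraries thinned to the shallowest. The 5 other tested peaks within 25 kb, at Gnas or next to it, had log2 fold changes between -0.55 and -0.14, and none passed.

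The last peak that fell belonged to RP23-480P21.2, inside Fras1, which encodes an extracellular matrix protein of epithelial basement membranes (chr5:96739211-96739800, 141 bp upstream). It had 2.26, 2.52 and 2.54 CPM in aged and 4.18, 4.20 and 3.82 CPM in young libraries. Values within an age were close together and the ages did not overlap, and the log2 fold change was -0.73 ± 0.19 (edgeR adjusted p = 0.0472). A peak 7.8 kb away in an intron of Fras1 fell by 0.83 on the log2 scale (edgeR adjusted p = 0.00937). The call at RP23-480P21.2 was near the threshold and was lost in DESeq2 (adjusted p = 0.179), with thinned libraries (0.0868) and without any one of the 6 libraries (edgeR adjusted p = 0.0721 to 0.220). Gm20687, Rbm46os and Wt1os were called under each of the 12 alternative fits. A narrower choice of members left some of them out. With a limit of 500 bp, 6 of 551 tested peaks were called (1.09%), without Wt1os. With 1 peak per transcript, 6 of 731 were called (0.821%), without Rbm46os. Over all tested peaks the share was 1.13%.

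**Figure D3:**
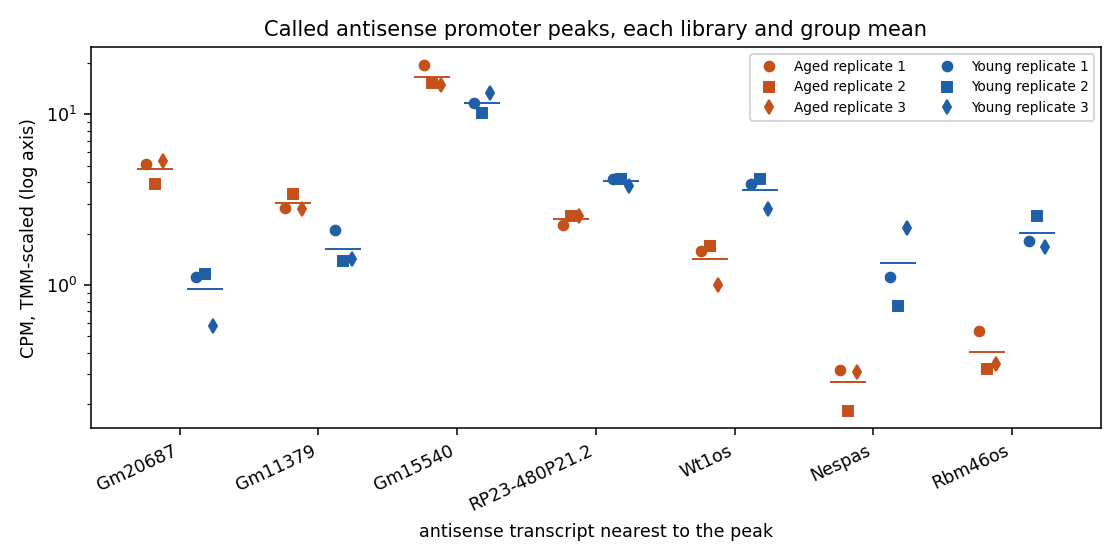
CPM in each library (points, log axis) and group mean (horizontal lines) for the 7 called antisense promoter peaks, with aged values left of young ones. At each of the 7 peaks the 3 aged libraries lie wholly above or wholly below the 3 young libraries, as at 14.7% of all tested peaks. The test selected the 7 on these same values, so this separation is no separate support.

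Antisense transcripts of imprinted loci other than Nespas were not called. Airn, which starts in an intron of Igf2r, had 2 peaks, both open in all libraries. The one that holds its RefSeq start had 14.3, 10.6 and 12.9 CPM in aged and 12.8, 12.6 and 13.9 CPM in young libraries (log2 fold change -0.06), and the other had a log2 fold change of -0.10. Kcnq1ot1, inside the potassium channel gene Kcnq1, had 0.947, 1.05 and 0.771 CPM in aged and 3.62, 0.976 and 0.576 CPM in young libraries. Only young replicate 1, the shallowest library, was high there, and the log2 fold change of -0.50 did not pass (edgeR adjusted p = 0.814). Without that library it was 0.20.

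The antisense transcript of Hnf4a, a nuclear receptor that directs gut epithelial gene expression, was also not called. Hnf4aos had peaks of 13.8 ± 1.75 and 11.4 ± 0.251 CPM in aged and 13.5 ± 1.44 and 12 ± 1.65 CPM in young libraries (log2 fold changes of 0.02 and -0.04; SD, n = 3 each). At homeobox loci, Hoxd3os1 (log2 fold change 0.48), Hoxaas3 (-0.46), Nkx2-2os (-0.19) and both peaks of Emx2os (0.12 and -0.07) did not pass, and Hoxb3os was too low to test. Adjusted p-values of the tested peaks at these transcripts, Airn and Kcnq1ot1 included, were 0.598 to 0.980 in edgeR.

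Whether a coding partner moved with its antisense transcript was examined for the 106 antisense transcripts whose symbol is that of a gene with a suffix such as os or as. Of their partners, 49 had a tested promoter peak annotated to them. Rbm46 and Wt1 were not among these, since the peaks at their starts are annotated to Rbm46os and Wt1os and are the ones that fell. Of the 49, none was called in edgeR's quasi-likelihood test (1.13% of all tested peaks) or in DESeq2 (0.682%). At these shares a group of this size would hold few or no calls. Against 9.71% of all tested peaks, 2 of the 49 had an unadjusted p under 0.05. These were Emx2, a homeobox gene (0.373 ± 0.0347 CPM in aged and 0.906 ± 0.201 CPM in young libraries, log2 fold change -1.18, edgeR adjusted p = 0.225), and Zfp286, a zinc-finger gene (0.864 ± 0.318 CPM in aged and 1.71 ± 0.362 CPM in young, log2 fold change -1.04, edgeR adjusted p = 0.0843 and 0.0443 with the replicate block). The median log2 fold change of the partners was 0.00. For the transcripts named above it was 0.10 at Hnf4a, 0.02 at Kcnq1, -0.07 at Nkx2-2 and 0.17 at Hoxb3, and none of these passed. In the 44 pairs where both peaks were tested, 21 had the same sign. Across pairs Spearman's rho was -0.13 and Pearson's r -0.06, as a description of pairs that share the same libraries. The gap between antisense and partner peaks had a median of 23597 bp and ran from 475 to 469189 bp. These values therefore say little about starts that lie side by side. A partner that starts in a peak annotated to its antisense transcript may have no value here, as at Rbm46 and Wt1.

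The called peaks were also counted by position relative to a coding gene, with no test of the difference. Of the peaks with a coding start within 1000 bp, 2 of 318 tested (0.629%) were called, both lower, and of those without one 5 of 482 (1.04%), 3 higher and 2 lower, against 1.13% of all tested peaks. The median log2 fold changes were 0.05 with a coding start and 0.02 without. Where the strand of both starts was known, none of 55 tested divergent peaks was called in edgeR, with or without the replicate block, or in DESeq2, and 5 had an unadjusted p under 0.05. None of 52 tested peaks at overlapping opposite starts was called in edgeR or DESeq2, with 6 at an unadjusted p under 0.05 and 2 called with the replicate block. At the shares over all tested peaks (1.13% called, 9.71% at an unadjusted p under 0.05 and 2.67% with the block), groups of this size would hold few or no calls. By level, the calls fell 2, 4, 1 and 0 over 4 equal groups of tested peaks ordered from low to high mean CPM. The most open group also had 0 calls in DESeq2, 20 peaks at an unadjusted p under 0.05 and 5 calls with the replicate block.

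The enzymes that limit antisense RNA were examined at their own promoters. Of 34 genes of the RNA exosome, its cofactors, the Integrator complex and termination factors, 16 had a promoter peak by the deposited annotation and were tested. None was called in edgeR's quasi-likelihood test, with or without the replicate block, or in DESeq2, and none had an unadjusted p under 0.05. Over all tested peaks 1.13% were called and 9.71% had an unadjusted p under 0.05, so 16 peaks would hold few or none. The log2 fold changes ran between -0.17 at Exosc5, a core exosome subunit, and 0.16 at Dis3l, a cytoplasmic exosome nuclease, with a median of 0.03.

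Comparing each aged library with the young one of the same number changed the count of calls. With the replicate block in edgeR's quasi-likelihood test, 24 of 805 antisense peaks were called (2.98%, 14 higher and 10 lower), against 2.67% of all tested peaks (1.46% higher and 1.21% lower). All 7 peaks called without the block were among them, and 17 were added, 11 higher and 6 lower. At 4 of these 17 the ages overlapped across libraries but differed within pairs. The added peak with the smallest p was that of Gm15564 (chr16:35981397-35981819), with 35.1, 32.0 and 40.1 CPM in aged and 66.3, 37.4 and 63.0 CPM in young replicates 1 to 3. Aged replicate 3 lay above young replicate 2, yet each aged library was below its own pair. The log2 fold change with the block was -0.59 (edgeR adjusted p = 1.68e-07). Without the block it was -0.61 and did not pass (edgeR adjusted p = 0.505). The differences in log2 (CPM + 0.5) within pairs 1 to 3 were uneven, at -0.91, -0.22 and -0.64, and the call rests on the pairing.

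The added peaks that rose did so by small amounts, between 0.23 and 0.83 on the log2 scale with the block. Gm15915, in an exon of the guidance molecule gene Ntn4, had 42.1, 42.3 and 41.3 CPM in aged and 37.3, 31.3 and 32.2 CPM in young libraries (log2 fold change with the block 0.33, edgeR adjusted p = 0.00437). Gm15747, at the start of the glucose-responsive transcription factor gene Mlxip, had 76.2, 78.8 and 81.7 CPM in aged and 68.7, 68.4 and 65.1 CPM in young libraries (0.23, edgeR adjusted p = 0.0480). At both, all aged libraries were above all young ones by a narrow margin. The other added peaks that rose were those of Arhgap27os1, Gm26647, Gm26861, 1810062O18Rik, 2210411M09Rik, Gm16243, Gm27247, 1810010H24Rik and 1700119H24Rik. Those that fell were Gm16299, Gm38039, Gm14019, 4930542C12Rik and C230034O21Rik beside Gm15564. All 24 peaks had the same sign in 3 of 3 pairs. The block test selected them on these same pairs, so this agreement is no separate support.

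**Figure D4:**
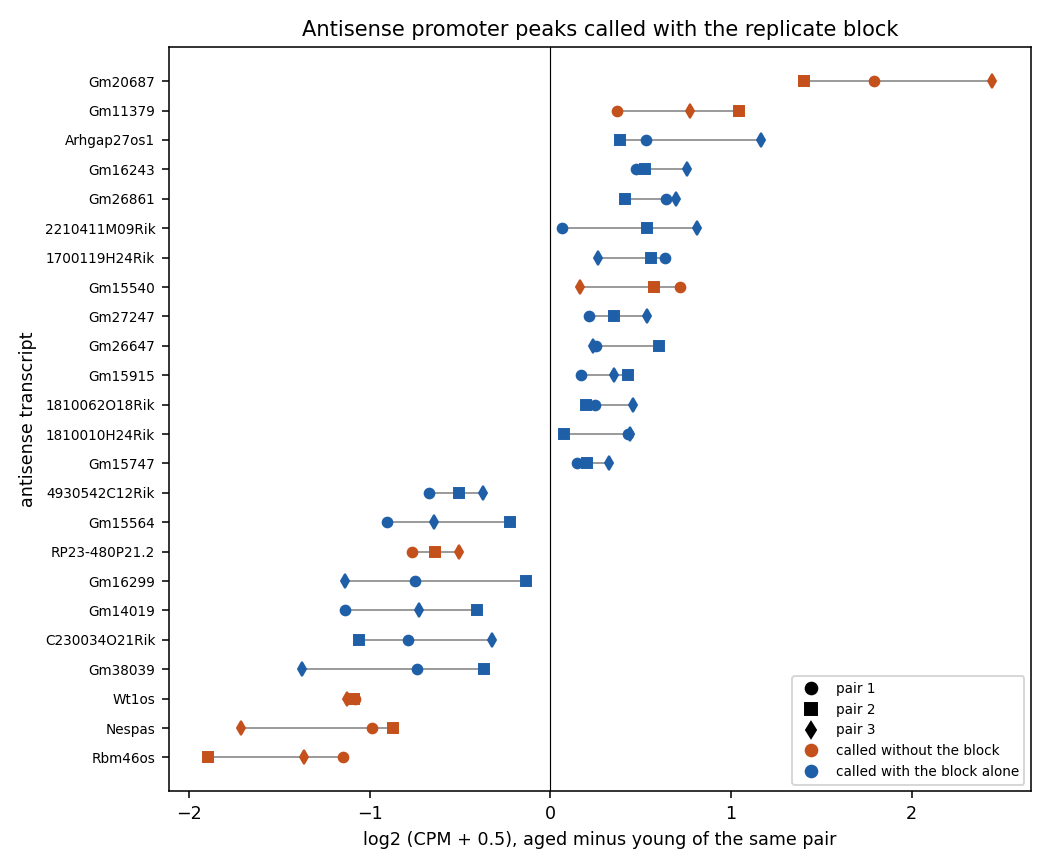
Difference in log2 (CPM + 0.5), aged minus young of the same replicate number (x axis), for the 24 antisense promoter peaks called with the replicate block (y axis), with 1 point per pair. At every one of the 24 peaks the 3 pairs lie on the same side of 0, which selection on these same pairs favours.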

How the data were processed

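The authors deposited whole-number counts per consensus peak for the 6 libraries and an annotation of those peaks on GRCm38. The counts are not normalised, per the file headers, and came from featureCounts 2.0.1, with BWA 0.7.17-r1188 and MACS2 2.2.7.1 among the tools in the submitters' processing notes. Whether reads or fragments were counted, duplicate treatment and any Tn5 shift are not given in the sources used here. Start positions of the 2 files differ by 1, and the 1-based ones are printed.

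Antisense promoters were found by gene type and a distance of at most 1000 bp in the annotation. Aged was compared with young over all peaks by the quasi-likelihood test of edgeR 4.0.16 (in R 4.3.3), with TMM factors and filterByExpr (minimum count 10), Benjamini-Hochberg adjusted over 132055 peaks, at a threshold of 0.05. CPM used TMM-scaled library sizes. The procedure was tested on simulated data. Library groups came from the titles. Same-numbered libraries share a passage and, in the titles, a culture code, which was read as a pairing, although the descriptions give 1 code for all 6. Deviations from the group means correlated by 0.0908, 0.167 and 0.181 within pairs and by -0.167 to 0.00599 between other libraries. No 2 libraries of an age agreed within counting noise.

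The named peaks are all called ones, the 5 highest in CPM, a list of known antisense symbols with their coding partners, and those nearest the distance limit. A few genes of these lists are not reported here. Peaks added by the block were named after their values were seen. The members and lists were chosen with earlier results of these data known. Gene spans, strands and sequences are from RefSeq GRCm38.p6, where 417 of 803 transcripts were matched and 325 had a promoter window. Alternatives were RLE factors, library totals, no filter, DESeq2 1.42.0, the replicate block, thinned libraries, leaving out each library, a limit of 500 bp and 1 peak per transcript. Counts carry no molecular identifiers. SEs and p-values reflect the spread among these libraries, which may be technical.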

Additional observations from a re-analysis of the deposited data

How the results depend on the processing

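Of the antisense promoter peaks, 3 were called higher and 4 lower in aged organoids. The higher calls numbered 5 with no filter on low counts, 1 in DESeq2, 1 with libraries thinned to the shallowest, 14 with the replicate block and 1 to 8 when 1 library was left out. The lower calls numbered 10 with the block and 3 to 6 when 1 library was left out. In all, without young replicate 2 there were 14 calls, 4 of them among the 7, and 4 without aged replicate 3. Where a count changed the cause was not tested. The median log2 fold change stayed between 0.02 and 0.06, and the difference in the share of counts between 0.0164 and 0.0369 percentage points without 1 library. The 7 called peaks kept their sign under all 12 alternative fits. The other 18 named and tested peaks, none called under any, changed sign in 29 values at 12 peaks, with adjusted p of at least 0.632. Depth limits the low peaks: 89 peaks were not tested, and thinning to the shallowest library left 629 tested.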

Other observations

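Within an age, the spread between libraries at antisense promoters was slightly below that over all tested peaks. The median SD of log2 CPM over the 805 tested peaks was 0.131 among aged and 0.178 among young libraries, against 0.155 and 0.203 over all 132055 tested peaks. Without replicate 1 of each age it was 0.108 among aged and 0.146 among young libraries, against 0.128 and 0.154 over all tested peaks. Antisense promoters were also more open, with a median of 3.68 CPM against 1.62 CPM over all peaks. The part of level in the lower spread was not tested. Antisense promoters lay on every chromosome, with 98 peaks on chromosome 2, 96 on chromosome 1, 14 on the X and 1 on the Y.

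Igf2os, antisense to the imprinted growth factor gene Igf2, was named after its values were seen. Its peak had a log2 fold change of 0.46 (edgeR adjusted p = 0.335) and did not pass.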
